A study of Rattus norvegicus with 45 samples.

Results

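The conjugation enzymes of rat liver are described here at the level of their mRNAs, through a time course of acetaminophen (APAP) overdose. The genes were chosen by symbol, with earlier results of these data known: the UDP-glucuronosyltransferases of families 1 and 2, the sulfotransferases, the cytosolic, mitochondrial and microsomal glutathione S-transferases, and the enzymes that make UDP-glucuronate and the sulfate donor PAPS. This choice took 35 of the 13877 genes of the rat table, namely 5 UGT2 genes, 9 sulfotransferases, 2 alpha, 7 mu, 3 theta, 1 kappa, 1 omega and 1 zeta class glutathione S-transferase, 2 membrane-bound glutathione S-transferases (MGST) and 4 cofactor enzymes. The UGT1 genes, among them Ugt1a6, which glucuronidates APAP in rat liver, were not analysed here.

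Male Sprague-Dawley rats, an outbred strain, were 5 weeks old and had been fasted for 16 h. Groups of 5 received 1000 mg/kg APAP or the vehicle alone, 1% hydroxyethylcellulose, by oral gavage, and liver was taken 3, 6, 9 and 24 h later. A group of 5 untreated rats, called baseline, was taken at 0 h, before dosing. Food was returned after dosing, so refeeding, time after gavage and time of day cannot be told apart in the vehicle animals. Each of the 45 arrays (Affymetrix rat genome expression arrays) held the liver RNA of 1 animal, and every animal was sampled once.

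Conjugation is the second phase of drug metabolism. Glucuronidation joins glucuronic acid from UDP-glucuronate to a drug, sulfation joins sulfate from PAPS, and glutathione S-transferases (GSTs) join glutathione to electrophiles. In the liver most APAP leaves as its glucuronide and sulfate, and the share oxidized by cytochromes P450 becomes the reactive quinone imine NAPQI, which is detoxified by glutathione.

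Levels are log2 values after RMA (robust multi-array average), so a difference of 1 is a doubling, and a level of 1 gene says nothing about the amount of another. A gene was called when its Benjamini-Hochberg adjusted p from limma, over all 13877 genes, was under 0.05 and its group means differed by at least 1.5-fold. Differences are given with their standard error (SE), group means with their SD, and all groups have n = 5. Arrays of 1 group correlated at r = 0.983 to 0.996 over all genes. The 7 hepatocyte markers examined (albumin, transthyretin and others) averaged 13.49 to 13.75 on every array, and none was called between APAP and vehicle at any time.

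After APAP the conjugation genes were mostly lower than in vehicle animals up to 9 h, and several were higher at 24 h. At 3 h 2 members, Gsta3 and Gstm2, were lower than in vehicle animals, where 2.98% of all genes were, and 0 were higher (0 also at an unadjusted p under 0.05), where 3.34% of all genes were. At 6 h 5 members were lower (14.3% of the 35, against 7.04% of all genes) and 0 higher (1 at an unadjusted p under 0.05), against 7.06% of all genes. At 9 h 9 members were lower (25.7%, against 8.47% of all genes), and 1, Ugdh, was higher (8.65% of all genes). At 24 h 6 members were higher (17.1%, against 1.56% of all genes) and 3 lower (8.57%, against 1.84%). Set against baseline instead of vehicle, the APAP animals had 0, 0, 4 and 0 members lower and 0, 1, 1 and 14 higher at the 4 times. The shares of all genes called against baseline, or at an unadjusted p under 0.05, were not counted. The shares called against vehicle do not stand for them. The median log2 difference over the members was -0.19, -0.18, -0.32 and 0.20 at the 4 times, beside -0.02, -0.04, -0.03 and 0.01 over all genes. Over the 4 times 14 members were called at least once and 21 were not, and the share of all genes called at least once was not counted. Cyclic loess scaling of the arrays, which moved the median of all genes by under 0.1, left 1 member lower at 3 h, 3 at 6 h and 5 at 9 h, and without vehicle replicate 4 or APAP replicate 3 the count at 6 h was 3. At 3 h the count of 2 was 0 without vehicle replicate 1 and 1 without vehicle replicate 3, 4 or 5 or APAP replicate 1, 2 or 4.

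Several members also rose in the vehicle animals. Against baseline 2 members were higher at 3 h (Gsta3 and Ugt2b1; 1.7% of all genes) and 2 at 6 h (Papss1 and Ugdh; 2.7% of all genes). At 9 h they were 5, namely Gsta3, Gstt3, Mgst2, Sult1e1 and Sult4a1 (14.3% of the 35, against 3.48% of all genes). At 24 h they were 7, namely Gsta3, Gstt1, Gstt3, Mgst2, Sult4a1, Ugp2 and Ugt2b1 (20% of the 35, against 3.62% of all genes). None of the 35 was called lower in vehicle animals at any of these times, where 1.85%, 2.33%, 2.92% and 2.93% of all genes were. At an unadjusted p under 0.05, with no fold limit, the members lower in vehicle animals numbered 1, 3, 2 and 2. The share of all genes at that limit was not counted. The count at 9 h was 3 without baseline replicate 3 and 2 without vehicle replicate 3, and that at 3 h was 1 without baseline replicate 1, 2 or 3 or vehicle replicate 2, 4 or 5. The APAP comparisons use these same vehicle arrays, so a gene that rose in vehicle animals and not in APAP animals appears as lower after APAP.

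**Figure D1:**
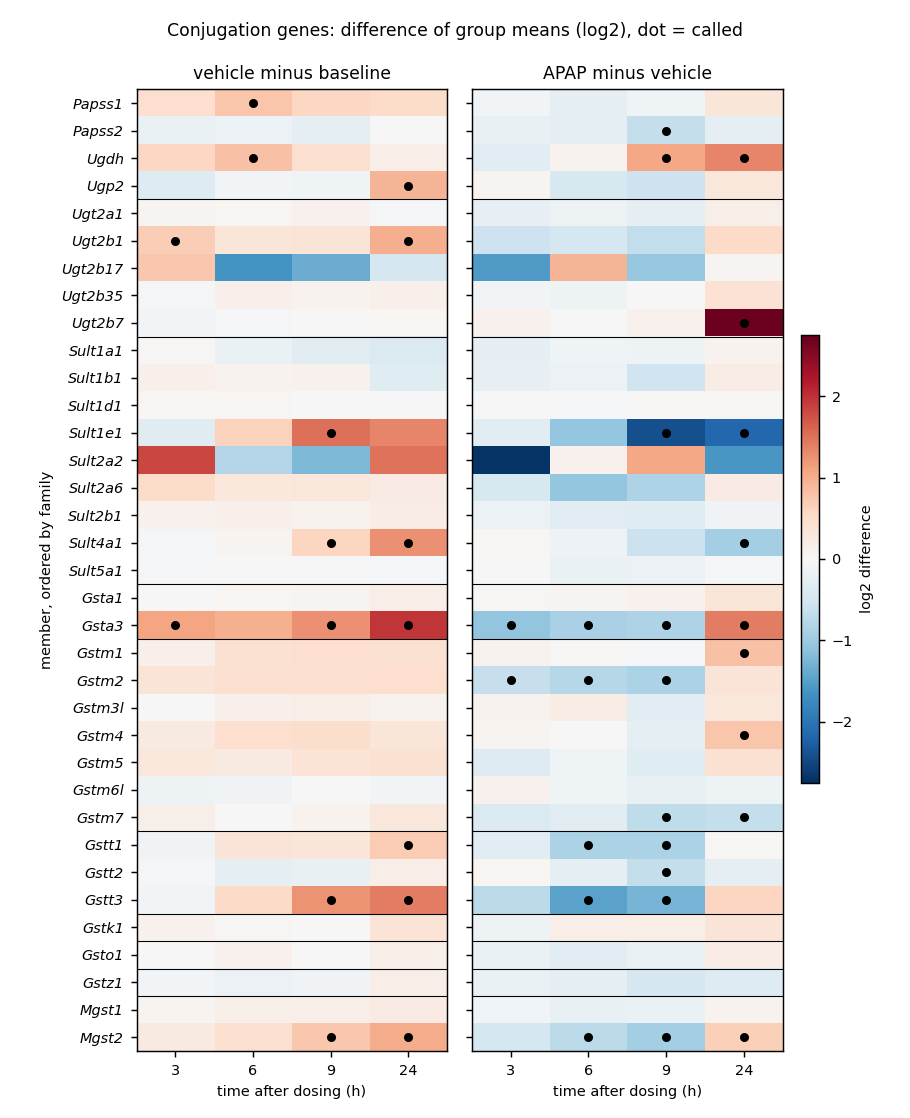
Difference of group means (log2) for all 35 members at 3, 6, 9 and 24 h, vehicle minus baseline on the left and APAP minus vehicle on the right, ordered by family, with red for higher, blue for lower and a dot for each called gene. The dots on the left are all on red cells, and those on the right are on blue cells up to 9 h except that of Ugdh.

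**Figure D2:**
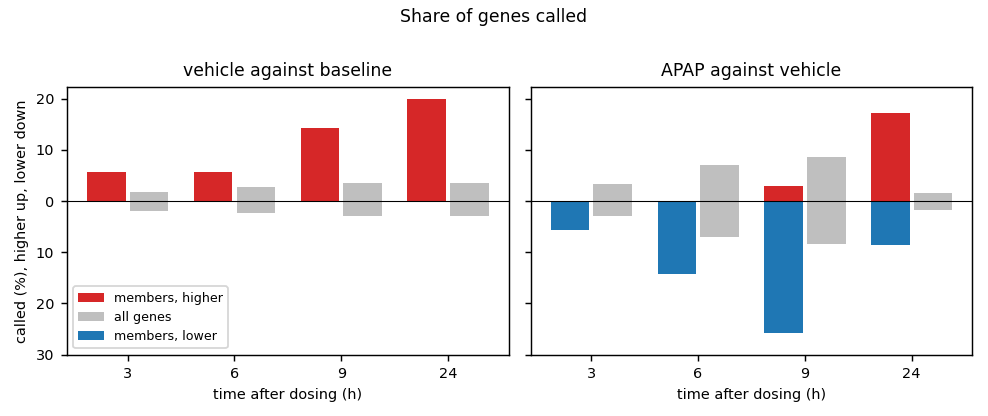
Percent of genes called higher (bars upward) and lower (bars downward) at each time, for the 35 members in colour and for all 13877 genes in grey. The downward bar of the members reaches 25.7% at 9 h after APAP and the upward bar 17.1% at 24 h.

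Promoters are shown for 4 of the called members: the 3 that held the first motif named below, and Ugt2b7, which had the largest called difference and held neither. The sequences are from RefSeq (assembly GRCr8), which listed a promoter of 250 bases before to 50 bases after the start for 29 of the 35 members. They were searched on both strands for TGACNNNGC, the core of the antioxidant response element bound by NRF2, and for GCGTG, the core of the xenobiotic response element bound by the aryl hydrocarbon receptor. TGACNNNGC was found in 6 of the 30 promoters listed for members (20%; 2 promoters were listed for Gsta3), against 12.1% of 33469 promoters of all genes, and GCGTG in 7 of them (23.3%, against 29.7%). Of the 10 called members with a listed promoter, 3 held TGACNNNGC: Gsta3, Ugdh and Gstm7. After APAP Ugdh was higher and Gstm7 lower at 9 and 24 h. Gsta3 was lower at 3, 6 and 9 h and higher at 24 h. The match of Gsta3 began 17 bases before the start, that of Gstm7 14 bases before it, and that of Ugdh, on the opposite strand, 207 bases before it, where the same letters also held GCGTG. Gsta3 and Gstm4, both higher at 24 h, were the other called members with GCGTG. That of Gsta3 lay in the other of its 2 listed promoters, which is not printed here. Ugt2b7 held neither motif in this window. The 250 bases before the start are printed 5′ to 3′ along the gene's strand, with TGACNNNGC or its reverse complement in capitals, for Gsta3 (chr9:31154739-31154988, plus strand), Gstm7 (chr2:198260320-198260569, minus strand), Ugdh (chr14:43202268-43202517, plus strand) and Ugt2b7 (chr14:21251285-21251534, plus strand).
Gsta3: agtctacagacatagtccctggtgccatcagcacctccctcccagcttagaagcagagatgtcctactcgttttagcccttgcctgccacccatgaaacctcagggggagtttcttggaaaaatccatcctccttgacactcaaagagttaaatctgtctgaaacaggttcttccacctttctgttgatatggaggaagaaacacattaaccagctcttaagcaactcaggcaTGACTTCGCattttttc
Gstm7: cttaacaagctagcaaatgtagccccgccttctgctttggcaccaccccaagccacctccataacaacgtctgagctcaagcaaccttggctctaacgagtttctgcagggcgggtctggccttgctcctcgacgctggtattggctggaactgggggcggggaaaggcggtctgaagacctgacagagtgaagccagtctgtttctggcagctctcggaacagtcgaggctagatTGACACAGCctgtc
Ugdh: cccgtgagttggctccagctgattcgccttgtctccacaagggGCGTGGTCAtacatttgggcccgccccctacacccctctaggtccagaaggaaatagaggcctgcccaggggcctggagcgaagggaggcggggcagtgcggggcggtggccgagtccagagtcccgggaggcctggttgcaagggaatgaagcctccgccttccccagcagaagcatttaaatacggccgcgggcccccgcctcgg
Ugt2b7: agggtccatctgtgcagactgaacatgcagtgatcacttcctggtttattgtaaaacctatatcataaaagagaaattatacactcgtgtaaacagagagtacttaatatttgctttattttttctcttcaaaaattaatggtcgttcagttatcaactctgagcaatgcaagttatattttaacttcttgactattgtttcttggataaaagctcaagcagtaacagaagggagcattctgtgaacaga
These matches describe the letters only, and binding was not measured.

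Of the cofactor enzymes, Ugdh was higher after APAP than in vehicle animals, Papss2 was lower at 9 h, and Ugp2 and Papss1 were not called. Ugdh oxidizes UDP-glucose to UDP-glucuronate, the donor that every glucuronidation uses. In APAP animals it stood at 13.22, 13.32, 13.48, 13.14 and 13.06 at 9 h, and in vehicle animals at 12.35, 12.05, 12.24, 11.97 and 12.30. The groups did not overlap, and the difference was 1.06 ± 0.10 (SE; 2.09-fold, limma adjusted p = 2.52e-06). At 24 h the APAP animals were at 13.28, 13.01, 12.98, 13.59 and 13.50 and the vehicle animals at 12.13, 11.66, 11.89, 11.85 and 12.09, again with no overlap (1.35 ± 0.13, adjusted p = 7.62e-05). At 3 h Ugdh was -0.29 ± 0.10 and at 6 h 0.09 from vehicle, neither called. The APAP effect at 9 h exceeded that at 6 h by 0.97 ± 0.13 (limma interaction), the only member called for that step (3.13% of all genes were; 2 members without vehicle 9 h replicate 4). Vehicle animals passed through a peak of their own, 0.80 above baseline at 6 h (adjusted p = 1.6e-05), and stood at 11.93 ± 0.19 (SD) at 24 h. The APAP animals of Ugdh differed from baseline by 0.28 ± 0.08, 0.88 ± 0.09, 1.49 ± 0.09 and 1.52 ± 0.12 (SE) at 3, 6, 9 and 24 h.

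Ugp2 makes UDP-glucose, from which both glycogen and UDP-glucuronate are formed, and was not called between APAP and vehicle at any time, although the animals of the groups separated at 6, 9 and 24 h. At 9 h the APAP animals were at 10.76, 11.07, 10.84, 10.79 and 10.66 and the vehicle animals at 11.27, 11.55, 11.37, 11.51 and 11.33. All APAP animals were below all vehicle animals, by -0.58 ± 0.08 (adjusted p = 9.99e-05), which at 1.49-fold was just under the fold limit. At 6 h they were below all vehicle animals too (-0.44 ± 0.09, adjusted p = 0.00157). At 24 h vehicle animals had risen over baseline by 0.94 ± 0.05 (1.91-fold, adjusted p = 1.28e-07), to 12.45, 12.49, 12.51, 12.46 and 12.36, from 11.54, 11.40, 11.57, 11.54 and 11.54. The APAP animals then stood at 12.57 to 13.04, all above the vehicle animals (0.32 ± 0.09, adjusted p = 0.0363, under 1.5-fold). The change of the APAP effect from 9 to 24 h was 0.90 ± 0.12. Against baseline the APAP animals of Ugp2 were -0.27 ± 0.06 at 3 h, -0.52 ± 0.08 at 6 h, -0.69 ± 0.07 at 9 h and 1.25 ± 0.09 at 24 h.

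Papss1 and Papss2 both make PAPS. Papss2 was lower after APAP at 9 h: APAP animals were at 9.34, 9.30, 9.19, 9.22 and 9.58 and vehicle animals at 9.97, 9.88, 10.14, 9.91 and 9.98, with no overlap (-0.65 ± 0.08, 1.57-fold, adjusted p = 3.07e-05). Under cyclic loess the Papss2 difference was -0.53 (adjusted p = 0.000351), below the fold limit. Against baseline the APAP animals of Papss2 were -0.90 ± 0.08 at 9 h (adjusted p = 2.48e-06), and the vehicle animals -0.25 ± 0.06, which was not called. At 3, 6 and 24 h Papss2 was -0.20, -0.25 and -0.25 from vehicle and not called. Papss1 was not called between APAP and vehicle at any time, with differences of -0.26 ± 0.06 at 6 h (adjusted p = 0.00337), the only time at which the groups did not overlap, and 0.33 ± 0.10 at 24 h (adjusted p = 0.0673). Its vehicle animals were at 8.33, 8.32, 8.39, 8.43 and 8.35 at 6 h, above baseline (7.77, 7.65, 7.66, 7.48 and 7.45) by 0.76 ± 0.06 (adjusted p = 5.35e-06). The APAP animals at 6 h, 7.97 to 8.25, lay between these groups.

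Among the UGT2 genes, Ugt2b7 alone was called after APAP, and its difference from vehicle was the largest called among the members. Human UGT2B7 glucuronidates morphine and many other drugs. Through baseline and all vehicle groups the 25 animals stood between 6.10 and 6.64, and the baseline mean was at percentile 33.3 of all genes. At 24 h the APAP animals were at 8.50, 8.21, 7.52, 10.21 and 11.55, all above the vehicle animals (6.47, 6.56, 6.43, 6.51 and 6.58) and spread over about 4 log2 units. The difference was 2.69 ± 0.61 (6.45-fold, adjusted p = 0.0142), and in the refits that left out 1 array it ran from 2.10 to 3.11 and was called each time. At 9 h the APAP animals were at 6.33, 6.81, 7.13, 6.29 and 6.29, a difference of 0.11 that was not called. The change from 9 to 24 h was 2.58 ± 0.68.

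The other UGT2 genes were not called between APAP and vehicle. Ugt2b1, a phenobarbital-inducible rat enzyme, rose over baseline in vehicle animals by 0.67 ± 0.15 at 3 h (adjusted p = 0.00767; 0.58 and not called without baseline replicate 1) and by 1.00 ± 0.18 at 24 h (adjusted p = 0.0017). Its APAP differences were -0.56, -0.49, -0.67 and 0.53, with adjusted p of 0.118 or more. Ugt2b35 was 0.40 ± 0.08 higher at 24 h without overlap (adjusted p = 0.00584), under the fold limit. Ugt2a1, best known from olfactory tissue, was -0.23 ± 0.06 at 3 h without overlap (adjusted p = 0.00944) and between -0.25 and 0.16 at all times.

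Sult1a1, the phenol sulfotransferase that sulfates APAP, stayed within a narrow range. Its APAP animals were at 13.25, 12.87, 13.05, 12.93 and 12.98 at 3 h and the vehicle animals at 13.32, 13.26, 13.48, 13.06 and 13.25, which overlapped (-0.26 ± 0.09, 1.20-fold, adjusted p = 0.0419). At 6, 9 and 24 h the groups overlapped too. The vehicle animals at 24 h (13.04, 12.74, 12.85, 12.75 and 12.86) all lay below baseline (13.17, 13.19, 13.15, 13.43 and 13.25), by -0.39 ± 0.07 (1.31-fold, adjusted p = 0.00161), which was not called. Sult1b1, which sulfates thyroid hormones and phenols, was -0.55 ± 0.12 at 9 h (1.46-fold, adjusted p = 0.00203), also not called.

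Sult1e1, the estrogen sulfotransferase, was the furthest below vehicle among the called members. At 9 h vehicle animals were at 12.45, 12.02, 12.99, 12.62 and 12.49 and APAP animals at 11.11, 7.61, 10.54, 11.21 and 10.06, with no overlap (-2.41 ± 0.56, 5.31-fold, adjusted p = 0.00371). At 24 h the APAP animals were at 9.23, 9.79, 10.10, 10.20 and 11.64 and the vehicle animals at 12.80, 10.05, 13.28, 13.27 and 12.33, which overlapped (-2.16 ± 0.60, adjusted p = 0.0377). The 24 h call was lost in 8 of 10 refits without 1 array, vehicle replicates 1, 3, 4 and 5 and APAP replicates 1, 2, 3 and 4 (adjusted p = 0.0607 to 0.0912). Sult1e1 had risen in vehicle animals over baseline by 1.52 ± 0.45 at 9 h (adjusted p = 0.0222, and 0.0528 without baseline replicate 4 or 0.0544 without vehicle replicate 3). Set against baseline (11.48, 12.26, 11.51, 10.52 and 9.22), the APAP animals at 9 h differed by -0.89 ± 0.70 (adjusted p = 0.336) and those at 24 h by -0.81 ± 0.54 (adjusted p = 0.319).

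Sult4a1, a mainly neuronal sulfotransferase with no settled substrate, was another gene that rose in the vehicle animals. They reached 6.81, 7.99, 6.70, 7.47 and 7.07 at 24 h, from 5.83, 6.10, 5.67, 5.95 and 6.19 at baseline (1.26 ± 0.21, adjusted p = 0.000918). The APAP animals were at 6.24, 6.28, 6.49, 6.25 and 6.07, below all vehicle animals (-0.94 ± 0.21, 1.92-fold, adjusted p = 0.0122). Against baseline the same Sult4a1 animals were 0.32 ± 0.10 higher (adjusted p = 0.0375), so the direction turned with the comparator. The vehicle rise at 9 h (0.59 ± 0.17, adjusted p = 0.0216) lost its call without baseline replicate 1 or 3 or vehicle replicate 1 or 3, at differences down to 0.46. Sult1d1, Sult2b1 and Sult5a1 were not called, and Sult2b1 was -0.32 ± 0.05 at 9 h (1.25-fold) with no overlap. Some of these signals were dim: at baseline Sult4a1 was at percentile 24.5 of all genes and Sult2b1 at 17.2. Sult1d1, with a baseline mean of 3.69, was at percentile 0.036, near the lowest value of any gene and array (3.48), where a missing call says little.

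**Figure D3:**
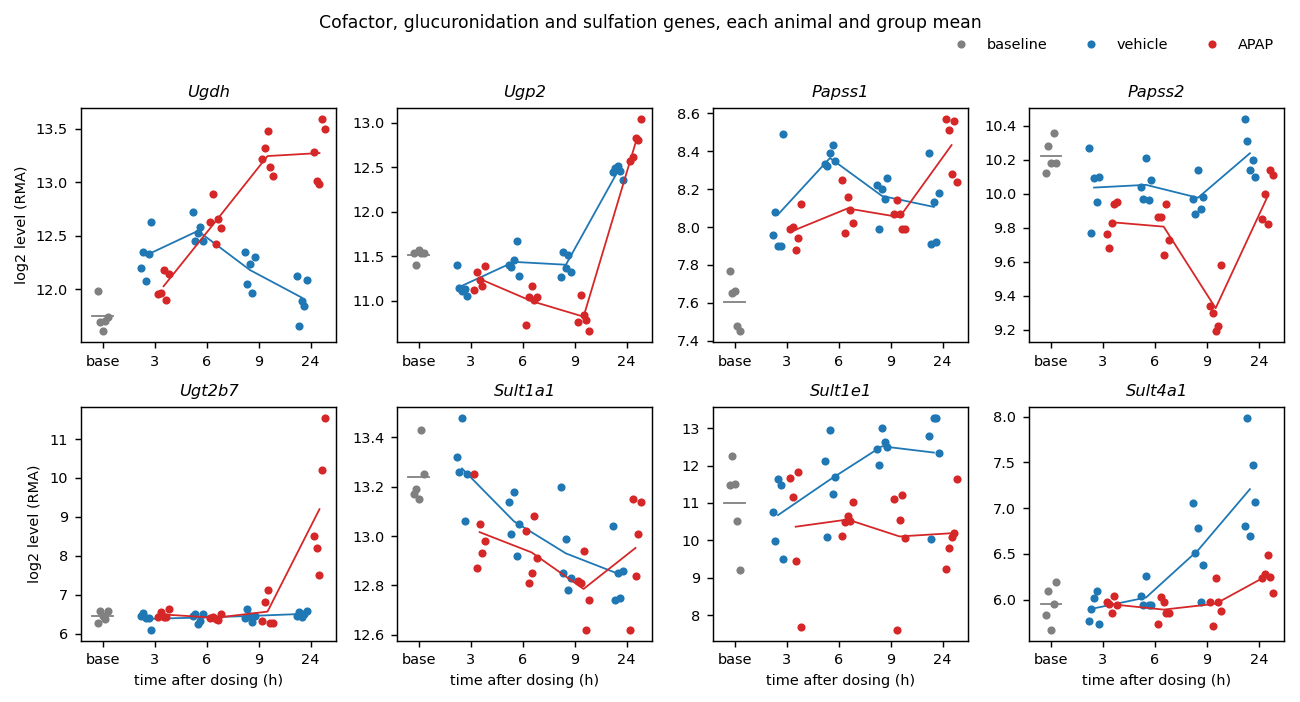
Log2 level of 8 cofactor, glucuronidation and sulfation genes in each animal (dots) at baseline and 3, 6, 9 and 24 h after dosing, with group means joined by lines, each panel on its own axis. The APAP animals of Ugdh separate upward from 9 h, those of Ugt2b7 at 24 h only (7.52 to 11.55), while for Sult1e1 at 9 h and Sult4a1 at 24 h all APAP animals lie below all vehicle animals.

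Ugt2b17, Sult2a2 and Sult2a6 differed widely between animals of 1 group, and none was called between APAP and vehicle. Ugt2b17 carries the current symbol Ugt2b15 and belongs to the androgen-conjugating UGT2B enzymes, and the Sult2a genes encode hydroxysteroid sulfotransferases, which sulfate steroids and bile acids. The within-group SD averaged 2.43 for Ugt2b17, 1.48 for Sult2a2 and 0.60 for Sult2a6. For the called members Sult1e1 and Gstt3 it averaged 1.03 and 0.71, more than for Sult2a6. Over all 45 arrays Ugt2b17 had 10 animals between 5.95 and 7.64 and 35 between 9.27 and 13.46. The low animals numbered 0 at baseline and 0, 2, 2 and 1 of 5 in vehicle animals at 3, 6, 9 and 24 h, and 1, 1, 2 and 1 of 5 in APAP animals. Sult2a2 had 28 animals between 6.68 and 7.91 and 17 between 9.18 and 11.75. Its low animals were 3 of 5 at baseline, 1, 4, 5 and 1 in the vehicle groups and 4, 4, 3 and 3 in the APAP groups. These gaps were chosen after the values were seen. The group means of Sult2a2 therefore lay far apart (-2.69 ± 0.97 at 3 h) with an adjusted p of 0.0596, and those of Ugt2b17 by up to -1.55 with none called. Differences of genotype between outbred animals were not tested.

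**Figure D4:**
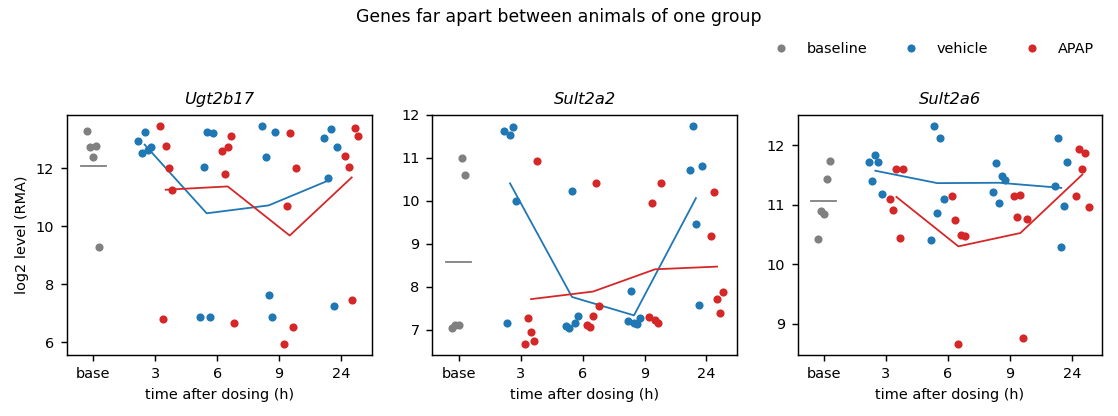
Log2 level of Ugt2b17, Sult2a2 and Sult2a6 in each animal (dots), with group means joined by lines. Animals of a single group lie far apart for Ugt2b17 and Sult2a2, with 10 and 28 of the 45 animals below the widest gap, in vehicle and APAP groups alike.

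The alpha class gave the gene with the most calls. Gsta3, a form once named Gsta5 or Yc2 that conjugates aflatoxin epoxide in rats, was lower after APAP at 3, 6 and 9 h and higher at 24 h. At 3 h APAP animals were at 7.89, 8.52, 9.16, 7.83 and 9.46 and vehicle animals at 9.86, 9.54, 8.69, 10.04 and 10.16 (-1.09 ± 0.35, adjusted p = 0.0346, overlapping). The differences at 6 h (-0.88 ± 0.28, adjusted p = 0.024) and 9 h (-0.84 ± 0.32, adjusted p = 0.0469) were close to the threshold. The early Gsta3 calls were sensitive to leaving out 1 array. Without 1 array the call was lost at 3 h in 7 of 10 refits (vehicle replicates 1, 2, 4 and 5, APAP replicates 1, 2 and 4, adjusted p = 0.0572 to 0.0852). It was lost at 6 h in 3 (vehicle replicates 2 and 4, APAP replicate 3, adjusted p = 0.0516 to 0.058). At 9 h it was lost in 8 (all vehicle replicates and APAP replicates 1, 4 and 5, adjusted p = 0.0116 to 0.0927), and without APAP replicate 4 the difference was -0.49. Cyclic loess gave adjusted p = 0.0502 at 6 h and 0.074 at 9 h.

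The 24 h call of Gsta3 was kept without any 1 array. APAP animals stood at 11.78, 11.74, 12.03, 12.20 and 12.12 and vehicle animals at 10.37, 11.26, 10.05, 10.69 and 10.41, with no overlap (1.42 ± 0.19, 2.67-fold, adjusted p = 0.000578). Vehicle animals were themselves above baseline (8.61, 7.41, 8.65, 9.07 and 9.16) at 24 h by 1.97 ± 0.31 (3.92-fold, adjusted p = 0.000545), at 9 h by 1.25 ± 0.26 and at 3 h by 1.08 ± 0.33. The call at 3 h was lost without baseline replicate 1, 2 or 3 or vehicle replicate 1, 2, 4 or 5 (adjusted p = 0.059 to 0.0894). Set against baseline the APAP animals of Gsta3 differed by -0.01 ± 0.37 at 3 h, 0.10 ± 0.30 at 6 h, 0.41 ± 0.40 at 9 h and 3.39 ± 0.27 at 24 h. The differences from baseline up to 9 h were thus no larger than about 1 SE. Gsta1, the other alpha gene, was 0.33 ± 0.08 higher at 24 h (1.26-fold, adjusted p = 0.0194), under the fold limit, and did not overlap.

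The mu class genes, all 7 on chromosome 2, did not move as 1 group. Gstm1 and Gstm2 encode the main mu class GSTs of rat liver. Gstm1 stayed within 0.11 of vehicle up to 9 h and was higher at 24 h, when APAP animals were at 14.20, 14.11, 14.23, 14.22 and 14.24 and vehicle animals at 13.49, 13.17, 13.55, 13.45 and 13.34 (0.80 ± 0.07, 1.74-fold, adjusted p = 5.25e-05). The groups did not overlap. Gstm4 was higher at 24 h too, at 9.85 to 10.43 in APAP animals against 9.20 to 9.45 in vehicle animals (0.77 ± 0.11, adjusted p = 0.000961). Vehicle animals were above baseline at 24 h by 0.42 ± 0.08 for Gstm1 and 0.33 ± 0.08 for Gstm4, without overlap and under 1.5-fold. Gstm2 went the other way early. At 9 h APAP animals were at 11.19, 11.54, 11.12, 11.12 and 11.31 and vehicle animals between 11.66 and 12.73 (-0.86 ± 0.17, 1.82-fold, adjusted p = 0.00128, no overlap). Gstm2 was also lower at 3 h (-0.64 ± 0.14, adjusted p = 0.00547) and 6 h (-0.79 ± 0.21, adjusted p = 0.00768), and at 24 h it was 0.36 above vehicle and not called. The 3 h difference dropped under 1.5-fold without vehicle replicate 1 or 3 or APAP replicate 5 (down to -0.53) and under cyclic loess (-0.55), and that at 6 h without APAP replicate 5 (-0.58). Against baseline the APAP animals of Gstm2 were -0.29, -0.34 and -0.42 at 3, 6 and 9 h and not called, and the vehicle animals 0.35, 0.44 and 0.44, also not called.

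Gstm7 was the mu gene that was lower at both 9 and 24 h. Its APAP animals lay between 9.16 and 9.43 at 9 h and its vehicle animals between 9.76 and 10.52, with no overlap. The differences were -0.69 ± 0.13 at 9 h (adjusted p = 0.000716, -0.56 without vehicle replicate 1 and -0.58 under cyclic loess) and -0.66 ± 0.13 at 24 h (adjusted p = 0.00766). Against baseline the APAP animals of Gstm7 were -0.59 ± 0.10 at 9 h (adjusted p = 0.000495) and -0.36 ± 0.10 at 24 h (adjusted p = 0.0163, under 1.5-fold), and the vehicle animals 0.10 and 0.30, not called. Gstm3l (current symbol Gstm3), Gstm5 and Gstm6l were not called between APAP and vehicle at any time. Their differences ran from -0.28 at 9 h to 0.30 at 24 h for Gstm3l, from -0.36 at 3 h to 0.42 at 24 h for Gstm5, and from -0.21 at 9 h to 0.12 at 3 h for Gstm6l. Genes of the mu class are close in sequence, so signal shared between them on the array was not separated here.

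The 3 theta class genes, all on chromosome 20, were all lower at 9 h. GSTT1 conjugates small halogenated hydrocarbons. Gstt1 was at 9.41, 9.33, 9.47, 8.87 and 8.91 in APAP animals and between 9.87 and 10.29 in vehicle animals at 9 h (-0.86 ± 0.13, 1.82-fold, adjusted p = 0.000145, no overlap). At 6 h the APAP animals of Gstt1 were at 8.71, 9.10, 9.21, 9.52 and 9.43 and the vehicle animals at 9.78, 9.72, 10.29, 10.18 and 10.40, again apart (-0.88 ± 0.17, adjusted p = 0.00088). Gstt2 was -0.66 ± 0.13 at 9 h (adjusted p = 0.00106; -0.55 under cyclic loess, below the fold limit). Against baseline the APAP animals of Gstt2 were -0.87 ± 0.10 at 9 h (adjusted p = 2.75e-05) and the vehicle animals -0.20, not called. Against baseline the APAP animals of Gstt1 were -0.52 ± 0.17 at 9 h (adjusted p = 0.0284), under 1.5-fold, and vehicle animals rose by 0.69 ± 0.16 at 24 h (adjusted p = 0.00806).

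Gstt3 had the largest theta class differences. At 9 h APAP animals were at 10.58, 10.57, 10.39, 9.44 and 9.98 and vehicle animals at 10.88, 11.32, 11.70, 11.72 and 11.74 (-1.28 ± 0.23, 2.43-fold, adjusted p = 0.000643, no overlap). At 6 h they were at 8.69, 8.42, 8.76, 10.20 and 10.35 and at 10.09, 9.41, 11.79, 11.43 and 11.07 and overlapped (-1.47 ± 0.49, adjusted p = 0.028). That Gstt3 call was lost under cyclic loess (adjusted p = 0.0525) and without vehicle replicate 3, 4 or 5 or APAP replicate 1, 2 or 3 (adjusted p = 0.0609 to 0.0701). Vehicle animals of Gstt3 rose over baseline by 1.24 ± 0.39 at 9 h and 1.40 ± 0.42 at 24 h. Both calls were lost without baseline replicate 3 or 5, that at 9 h also without vehicle replicate 3, 4 or 5 (adjusted p = 0.0655 to 0.0712), and that at 24 h without vehicle replicate 1, 3 or 5 (adjusted p = 0.0554 to 0.0653). Against baseline the 9 h APAP animals differed by -0.04 ± 0.41.

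Mgst2, a microsomal enzyme that also makes leukotriene C4, crossed from lower to higher. At 9 h APAP animals were at 10.50, 10.86, 10.97, 10.22 and 10.41 and vehicle animals at 11.70, 11.48, 11.67, 11.26 and 11.47 (-0.93 ± 0.14, 1.90-fold, adjusted p = 0.000161). It was lower at 6 h too (-0.75 ± 0.10, adjusted p = 5.77e-05). At 24 h the order was turned: APAP animals were at 12.45, 12.16, 12.53, 12.61 and 12.50 and vehicle animals at 11.86, 11.84, 11.78, 11.67 and 11.78 (0.66 ± 0.08, 1.58-fold, adjusted p = 0.000389). The Mgst2 groups did not overlap at 6, 9 or 24 h. Vehicle animals were above baseline by 0.75 ± 0.09 at 9 h and 1.02 ± 0.07 at 24 h, and the APAP animals differed from baseline by -0.17 ± 0.13 at 9 h. Mgst1, the abundant membrane-bound GST of liver endoplasmic reticulum, varied little, with differences of -0.21 ± 0.05 at 6 h and -0.18 ± 0.05 at 9 h that did not overlap and were under 1.5-fold.

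The remaining single-gene classes were not called. Gstz1, which acts in tyrosine breakdown as maleylacetoacetate isomerase, was -0.47 ± 0.07 at 9 h (1.38-fold, adjusted p = 0.000112) and -0.36 ± 0.07 at 24 h, both without overlap. Gsto1, a thiol transferase, was -0.28 ± 0.08 at 6 h (adjusted p = 0.0122). Gstk1, a mitochondrial and peroxisomal enzyme, differed by -0.13 to 0.36.

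**Figure D5:**
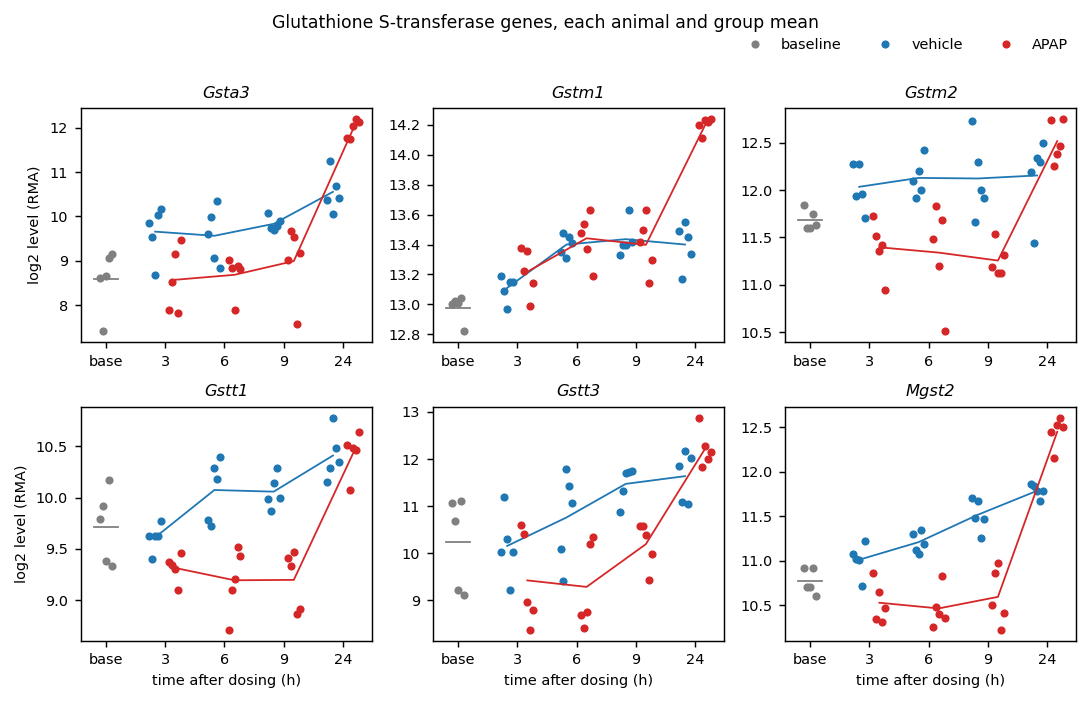
Log2 level of 6 glutathione S-transferase genes in each animal (dots) at baseline and 3, 6, 9 and 24 h after dosing, with group means joined by lines, each panel on its own axis. APAP animals lie below vehicle animals at 9 h for Gsta3, Gstm2, Gstt1, Gstt3 and Mgst2, and above them at 24 h for Gsta3 (11.74 to 12.20), Gstm1 and Mgst2.

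The change of the APAP effect between 9 and 24 h was itself tested as an interaction, which does not by itself show a reversal. The APAP effect changed upward in 11 of 35 members (31.4%, against 16.4% of all genes in either direction) and downward in 0. The share of all genes in each direction was not counted, so neither the upward nor the downward count has a like share. The 11 were Gsta3 (2.26), Gstm1 (0.84), Gstm2 (1.23), Gstm4 (1.01), Gstm5 (0.75), Gstt1 (0.88), Gstt3 (1.86), Mgst2 (1.59), Sult1b1 (0.75), Ugp2 (0.90) and Ugt2b7 (2.58). Gstm5 lost its call in 7 of 20 refits without 1 array (vehicle 9 h replicates 1 and 2, vehicle 24 h replicates 3 and 4, APAP 9 h replicates 1 and 2, APAP 24 h replicate 3, adjusted p = 0.0514 to 0.0576), and Sult1b1 under cyclic loess (0.51, adjusted p = 0.0582). From 3 to 6 h 0 members were called, where 6.9% of all genes were, and 6 had an unadjusted p under 0.05, not counted over all genes. This 0 was 1 without vehicle 3 h replicate 2 or 5, vehicle 6 h replicate 1 or 2, APAP 3 h replicate 4 or 5 or APAP 6 h replicate 4 or 5.

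Genes beside the members in the same pathways were counted from fixed lists. Of all genes 2.98%, 7.04%, 8.47% and 1.84% were called lower than in vehicle animals at 3, 6, 9 and 24 h. The shares called higher were 3.34%, 7.06%, 8.65% and 1.56%. These shares apply to the APAP counts of every list below, down to the cell type markers. Of 6 genes listed for mercapturate metabolism, 1, 2, 3 and 0 were lower at 3, 6, 9 and 24 h and 0 were higher. Mercapturate formation turns glutathione conjugates into the form that is excreted. Nat8, which acetylates the cysteine conjugate in the last step, was lower by log2 differences of -1.26, -1.73 and -2.28 at the 3 earlier times (adjusted p = 8.69e-07 at 9 h). Anpep, a peptidase, was lower by -1.04 at 6 h and -0.95 at 9 h. Acy3, an aminoacylase that removes the acetyl group from mercapturates and does not form them, was lower by -0.62 at 9 h. Nat8 had meanwhile risen in vehicle animals over baseline, by 0.74, 0.98, 1.22 and 1.96 at the 4 times, and Anpep and Acy3 were not called there. Of 17 other conjugation genes, 2, 4, 6 and 1 were lower and 1, 1, 0 and 2 higher. Glyat, the glycine conjugation enzyme, was lower by -1.01, -1.72 and -1.48 at 3, 6 and 9 h, and the bile acid conjugating enzyme Baat by -0.92 at 6 h and -1.32 at 9 h. Ephx1, the microsomal epoxide hydrolase, was higher at 3 h (0.84) and 24 h (1.06 ± 0.07, adjusted p = 9.18e-06). In vehicle animals against baseline Ephx1 was also higher at 24 h (1.11), as at 6 and 9 h, while Glyat and Baat were not called. Of 10 genes of UDP-sugar and PAPS handling, Sts, the steroid sulfatase, was higher at 6 and 9 h (0.61 and 0.88; -0.57 and not called, and -0.70 and called, in vehicle animals against baseline) and Slc26a1, a sulfate transporter, lower at 24 h (-0.67).

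Transporters that carry conjugates out of the hepatocyte were among the genes that were higher late. Of the 5 listed, Abcc3 and Abcc4, which export glucuronides and other conjugates across the sinusoidal membrane into blood, were above vehicle at 9 h (0.75 ± 0.24 and 0.80 ± 0.27) and at 24 h (2.27 ± 0.25, adjusted p = 0.000161, and 2.09 ± 0.28, adjusted p = 0.000578). Neither was called between vehicle and baseline. Abcc2, the canalicular exporter, was above vehicle at 24 h (0.59 ± 0.15, adjusted p = 0.0289), after vehicle animals had risen over baseline at 6, 9 and 24 h (1.14, 1.14 and 1.02). Abcg2 was lower at 6 and 9 h (-0.79 and -0.97) and Slco1b2, an uptake carrier, at 24 h (-0.91 ± 0.17). In vehicle animals against baseline Abcg2 was 0.40 at 6 h, not called, and higher at 9 h (0.78), and Slco1b2 was lower at 24 h (-0.83).

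Of 15 regulators of conjugation genes, 6, 5, 3 and 0 were higher and 3, 2, 2 and 0 lower at 3, 6, 9 and 24 h. Maff, a small MAF protein that pairs with NRF2, was above vehicle by 4.28, 5.36 and 4.84 at 3, 6 and 9 h, and Mafg by 0.81, 0.98 and 0.87, and neither was called between vehicle and baseline. Nfe2l2, the gene of NRF2, was -0.59 ± 0.16 at 3 h (adjusted p = 0.0161) and was not called later. It was 0.78 above baseline in vehicle animals at 3 h and 0.60 at 9 h, both called. Nr1i2 (PXR) was higher at 3 and 6 h (0.90 and 0.92) and Ahr too (0.74 and 0.59). Both were lower in vehicle animals than at baseline at 3, 6 and 9 h, by -0.92, -1.14 and -1.31 for Nr1i2 and by -0.63, -0.64 and -0.75 for Ahr.

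Markers of liver zones and other cell types moved with some of these comparisons. Of 8 pericentral hepatocyte markers, Glul, Cyp1a2 and Oat were lower at 24 h, when the mean over the list was 9.78 to 9.94 in APAP animals and 10.25 to 10.48 in vehicle animals. Glul was also lower at 3 and 6 h. Of 8 periportal markers Hal, Sds, Pck1 and Cdh1 were called at 3 and 6 h (2 in each direction), Hal and Sds at 9 h (1 in each) and none at 24 h, and the list means of the groups overlapped at each time. Of 5 neutrophil and monocyte markers S100a8 was higher at 9 h (list means 5.61 to 6.85 against 5.51 to 5.91). Of 6 Kupffer cell markers Cd163 was higher at 3, 6 and 9 h and Adgre1 lower at 9 and 24 h (list means at 24 h 8.54 to 9.12 against 8.89 to 9.32). Of 6 stellate cell markers Lrat was lower at 6, 9 and 24 h and Col1a1 at 24 h (list means at 9 h 6.65 to 6.92 against 7.20 to 7.34). Of 4 endothelial markers Lyve1 was higher at 6 h and Kdr lower at 9 h (list means at 9 h 8.70 to 9.07 against 8.96 to 9.13), and of 7 cholangiocyte markers Epcam was higher and Krt19 lower at 9 h (6.23 to 6.41 against 6.42 to 6.54). The part of these markers in the results above was not tested, and in whole liver RNA fewer cells of a type and less RNA per cell cannot be told apart.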

How the data were processed

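The authors processed the arrays with affy 1.64.0 in R 3.6.1 and RMA, using BrainArray definitions version 19 (1 probe set for each Entrez gene), and deposited log2 expression values for 13877 rat genes, taken as given. The deposited workbook also held a second block of 45 value columns headed by animal codes, which was not used. RNA integrity was checked by the study in representative samples only. Gene symbols came from the deposited sheet, and 33 of the 35 are also the current RefSeq symbols (GRCr8). 1 gene that the symbol rule also covers is not reported here.

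APAP was compared with vehicle at each time, and vehicle with baseline, in 10-array fits with limma 3.58.1 (R 4.3.3), and the change of the APAP effect between times in 20-array fits. The fits were tested on simulated data. The p-values measure the spread between single animals. Members named with every animal's value were the 10 with the largest difference among those called, plus Ugdh, Ugp2, Papss1, Papss2 and Sult1a1. The members and lists were chosen with earlier results of these data known. Alternatives were a fit of all 45 arrays, limma-trend, cyclic loess, a filter on the 25% dimmest genes, other thresholds, a replicate block, baseline in place of vehicle, and leaving out each array. The replicate numbers, shared between groups, are of different animals.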

Additional observations from a re-analysis of the deposited data

Results flagged for a closer look

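In 4 of 126 groups of 5 animals screened, over the 14 members given animal by animal, 1 animal lay far from the rest of its group; chance alone gives about 1 in 20. Gsta3 had 1 APAP animal at 6 h (replicate 3) at 7.88, with the nearest at 8.81. Gstm1 had 1 baseline animal (replicate 5) at 12.82, with the nearest at 13.00. Ugp2 had 1 baseline animal (replicate 2) at 11.40, with the nearest at 11.54, and 1 vehicle animal at 3 h (replicate 1) at 11.40, with the nearest at 11.15.

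The APAP effect differed between time points in 12 limma interaction tests of members. From 6 to 9 h the log2 effect of Ugdh changed by 0.97. From 9 to 24 h it changed by 2.26 in Gsta3, 0.84 in Gstm1, 1.23 in Gstm2, 1.01 in Gstm4, 0.75 in Gstm5, 0.88 in Gstt1, 1.86 in Gstt3, 1.59 in Mgst2, 0.75 in Sult1b1, 0.90 in Ugp2 and 2.58 in Ugt2b7.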

How the results depend on the processing

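Of 57 member differences followed (every call and the named members), limma-trend left all 57 on the same side of the thresholds. The fit of all 45 arrays left 55 there, the replicate block 54, cyclic loess 49 and an adjusted p under 0.01 left 44. With the dimmest 25% of genes left out all 56 still tested stayed. With baseline in place of vehicle, 11 of the 29 APAP differences followed stayed, 13 lost their call, 2 became calls and 3 changed sign. Members lower after APAP numbered 2, 5 and 9 at 3, 6 and 9 h, and 1, 3 and 5 under cyclic loess. Without a fold limit they were 9, 12 and 16, and 10 were higher at 24 h; vehicle over baseline then gave 7, 7, 11 and 12 higher and 1 lower at 3 h, 2 at 9 h and 1 at 24 h, and the changes 3 to 6 h and 6 to 9 h gave 2 and 3. At an adjusted p under 0.01, 1 member was lower at 3 h, 3 at 6 h and 1 at 24 h, and vehicle over baseline gave 1 at 3 h and 2 at 9 h. The fit of all arrays gave 1 there at 3 h. With baseline in place of vehicle, 0, 0, 4 and 0 members were lower at 3, 6, 9 and 24 h, and 1 was higher at 6 h and 14 at 24 h. The share of all genes called was counted at the main setting only, so no such share stands beside the counts of these alternatives. The sign was then reversed for Gsta3 at 6 h (0.10 ± 0.30 SE) and 9 h (0.41 ± 0.40) and Sult4a1 at 24 h (0.32 ± 0.10). Leaving out 1 array gave 0 to 3 members lower at 3 h, 3 to 6 at 6 h, 1 to 3 higher in vehicle animals at 3 h and 2 to 6 at 9 h, 0 to 1 for the change from 3 to 6 h and 1 to 2 for that from 6 to 9 h (2 without vehicle 9 h replicate 4).

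The replicate numbers did not pair the animals (correlations of deviations -0.23 to 0.23, at most 2 of 5 pairs over 0.1). With the replicate number as a block, 1 member was lower at 3 h (2 without), and Gsta3 at 3 h (adjusted p = 0.0528) and Gstt3 against baseline at 9 and 24 h (0.0525 and 0.0597) lost their calls. With 5 arrays a group, differences near the fold limit are decided by single animals, and probe saturation and cross-hybridization between related genes could not be read from gene-level values.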
